A study of Mus musculus with 8 samples.

Results

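Autophagy and mitophagy genes were followed in the quadriceps, a locomotor thigh muscle, of adult male C57Bl/10 mice. The 42 genes were taken from a list ordered by the step of autophagy they serve, out of 13258 genes tested on the array. Of these, 16 act in initiation and membrane supply, 15 in conjugation and 7 as receptors. The other 4 are listed under fusion with lysosomes, among them the transcription factor Tfeb. Of the 42 genes, 41 had a probe set of their own that passed the filter on dim signals, and Optn, an adaptor that brings ubiquitin-tagged cargo to autophagosomes, was not analysed here. The 41 genes were read by 96 probe sets, of which 79 passed the filter. Each gene is given by its brightest probe set unless another is named.

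The hypoxia group was 4 arrays from mice kept 2 weeks in a sealed chamber, where oxygen was brought down little by little in the first week (start 21%, end 8%) and was held at 8% for 7 more days. The control group was 4 arrays from mice kept in room conditions for the same 2 weeks. A chamber is named for the hypoxia mice alone, so low oxygen and housing in it cannot be told apart. All mice were male and of 1 strain, no genetic change is named for either group, and the labels leave unsaid whether each RNA sample was from its own mouse, so p-values cover no more than the spread between the arrays, which may be technical. Values are Affymetrix MAS5 signals on a linear scale, on which probes near the 3' end of a transcript are read. A change is the log2 difference of signal plus 16, hypoxia minus control, with its standard error (SE). A gene is said to have risen or fallen where the Benjamini-Hochberg adjusted p of the limma fit over all 13258 genes was below 0.05.

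Autophagy wraps part of the cytoplasm in a growing membrane, closes it into an autophagosome and empties it into a lysosome. A kinase complex around ULK1 or ULK2 starts the process, a lipid kinase complex around PIK3C3 and Beclin 1 marks the membrane, and a ubiquitin-like conjugation system attaches proteins of the LC3 and GABARAP family to it. Receptors bind both cargo and these family members, and RAB7 and syntaxin 17 help the closed vesicle to fuse. In skeletal muscle this pathway removes damaged mitochondria (mitophagy) and supplies amino acids in fasting, and in mice FoxO3 is a known activator of several of its genes.

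After hypoxia, transcripts of 4 of the 5 LC3 and GABARAP family members and of the receptors Nbr1 and Bnip3 were higher. Those of the starting kinase Ulk2 were lower. Other probe sets past the filter passed in the same direction for Gabarapl1 and Ulk2. Those of Map1lc3b (0.25 and 0.24), Gabarapl2 (0.46) and Nbr1 (0.68) changed less and did not pass, and Gabarap and Bnip3 had no other. Ulk1 and the fusion genes Stx17 and Rab7 were lower on their brightest probe sets, but another probe set of each had the opposite sign and their calls were lost when probe sets were averaged per gene. Of the 41 tested genes, 9 rose (22% of them, beside 14.8% of all genes tested) and 7 fell (17.1%, beside 18.8% of all genes tested). The share that passed in either direction was 39% for these genes and 33.5% for all genes tested, so the share for the list was near that of the whole array. Hypoxia and control values did not overlap in 16 of the 41 genes (39%, beside 33.4% of all genes tested). The median change was 0.04, against -0.04 over all genes tested. Changes ran from -1.59 for Ulk2 to 1.66 for Gabarapl1, and only 4 genes passed with at least a 2-fold difference, Gabarapl1, Nbr1 and Map1lc3b upwards and Ulk2 downwards (5.91% and 8.92% of all genes did so). By step, 5 conjugation genes of 15 rose and none fell, 2 initiation genes of 16 rose and 4 fell, 2 receptors of 6 rose and 1 fell, and 2 fusion genes of 4 fell and none rose.

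**Figure D1:**
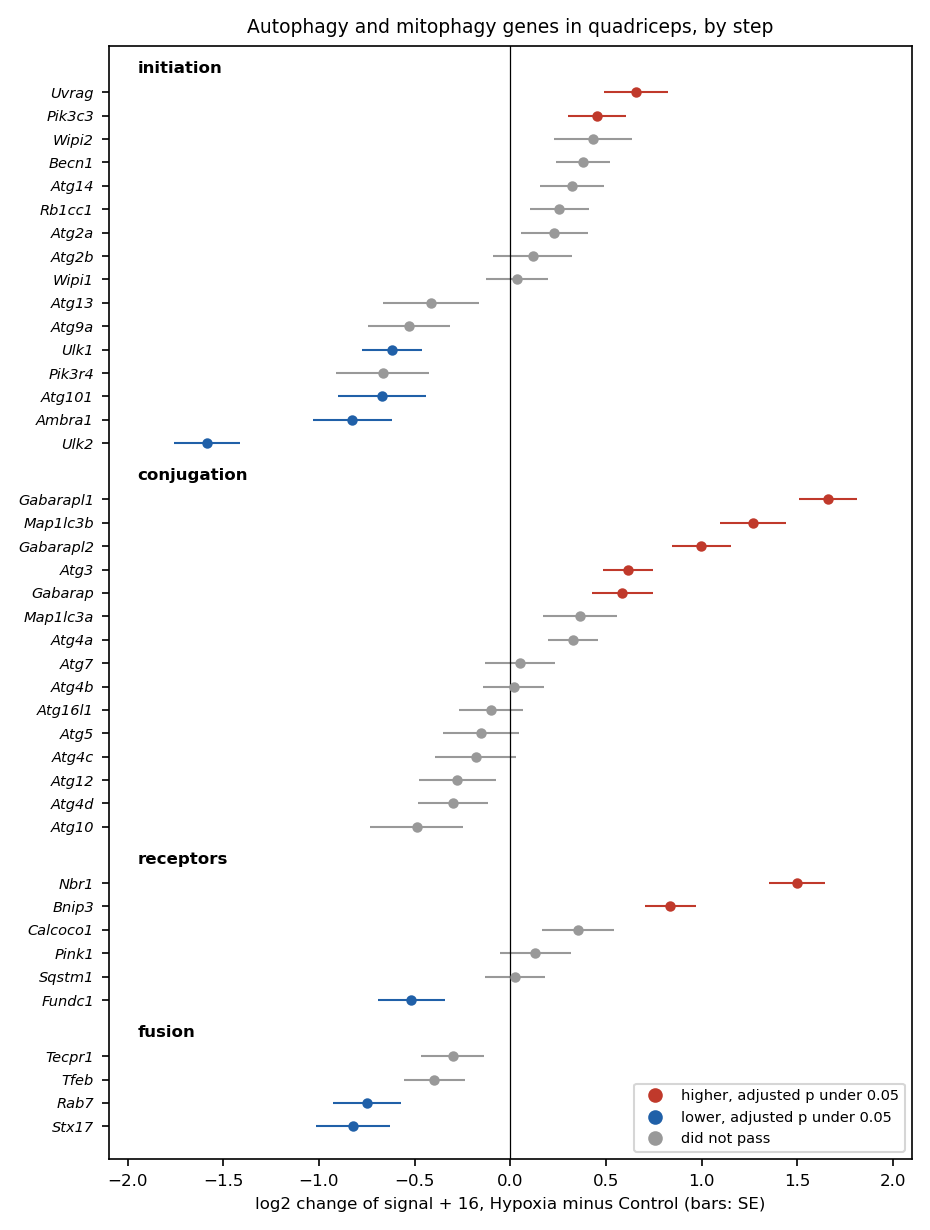
Log2 change of signal plus 16, hypoxia minus control (horizontal axis), of the 41 tested autophagy and mitophagy genes in rows grouped by step, with bars for the SE of the limma fit. Red points (9 genes) rose, blue points (7) fell and grey points (25) did not pass; the 5 conjugation genes that rose include 4 of the 5 LC3 and GABARAP family members.

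The split between rises and falls moved with the scaling of the arrays. Median centring shifted the median of all genes by 0.13, and 13 of the 41 genes were then called higher and 5 lower. Among the 16 initiation genes the balance turned, with 5 called higher and 3 lower, and among the receptors Fundc1 was no longer called. Relative to the median of all genes, a measure that median centring leaves as it is by construction, the median change of the 41 genes was 0.08, that of the 15 conjugation genes 0.09 and that of the 4 fusion genes -0.53. After quantile normalization these were 0.12, 0.15 and -0.55. All these medians rest on the brightest probe sets, and with the mean of probe sets none of the 4 fusion genes was called.

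A measure of RNA quality and the signals of cell type markers also differed along the groups. The Gapdh control probe sets gave a 3'-over-5' signal ratio, a measure that goes up in broken RNA, of 3.44 on hypoxia array 1 and 0.801 to 0.874 on hypoxia arrays 2 to 4, against 0.776 to 0.807 on the control arrays. For beta-actin this ratio was 1.4 to 2.53 on hypoxia arrays and 1.09 to 1.25 on control arrays. Hypoxia array 1 was the lowest of the 4 hypoxia arrays in 18 of the 41 genes and the highest in 12. Without it, 10 genes were called higher and 8 lower. The tissue carried its defining markers: the summed signal of 10 skeletal muscle markers was 329117 to 430579.5 in hypoxia and 489853 to 600278 in control muscle, and 8 of the 10 fell. Of 11 macrophage markers, 1 (Cd68) rose and 2 fell, with sums of 10825 to 20537 in hypoxia and 13222 to 19309.7 in control muscle. Of 6 tested neutrophil markers of 8 listed, 3 rose (S100a8, S100a9 and Ngp), with sums of 3328 to 6007 in hypoxia and 591 to 1116 in control muscle. S100a8 averaged 2508 in hypoxia and 271 in control muscle, and S100a9 averaged 1056 and 49.6. Csf3r, Elane and Camp did not pass, and Mpo and Ltf were below the filter. All 7 fibroblast markers fell, with sums of 14228 to 18672 in hypoxia and 48969 to 54640.2 in control muscle. Of 7 endothelial markers 1 fell, with sums of 4828 to 8527 in hypoxia and 5725 to 9341 in control muscle. Of the 4 tested Schwann cell markers 2 fell, with sums of 4384 to 6938 in hypoxia and 6402 to 9019.9 in control muscle. The 3 tested adipocyte markers fell, with sums of 17198 to 26595 in hypoxia and 28481 to 58910.4 in control muscle. None of the 3 tested erythroid markers passed, with sums of 930.4 to 1387 in hypoxia and 765 to 1832 in control muscle. No tested marker was at 0, Lep, Hba-a1 and Epb42 were below the filter, and Plin1, Cfd and Hbb-b1 had no probe set of their own. The part of these differences in the results on autophagy genes was not tested, and in whole muscle fewer cells of a type and less RNA per cell cannot be told apart.

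Of the 7 falls, 4 were in initiation, the step with the most genes (25% of its 16 genes, beside 18.8% of all genes tested). With the mean of probe sets 2 of the 16 were lower. Ulk2, a kinase that starts autophagosome formation, had signals of 615, 664, 907 and 762 in hypoxia muscle, against 1743, 2543, 2196 and 2499.9 in control muscle. Every hypoxia value was below every control value, with means of 737 ± 129 in hypoxia and 2246 ± 369 in control muscle (SD, n = 4 each). The fall was 3-fold (log2 change -1.59 ± 0.17, adjusted p = 2.17e-05), and both other bright probe sets of Ulk2 fell as well, by 1.29 and 0.82 on the log2 scale. Ulk1, the better known of the 2 kinases, had signals of 702, 765, 1001 and 829 in hypoxia muscle, against 1361, 1329, 1297 and 1087 in control muscle. The groups did not overlap and the fall was 1.54-fold (log2 change -0.62 ± 0.16, adjusted p = 0.00824), but a dimmer probe set changed by 0.05 without passing, and the mean over both probe sets changed by -0.28 and did not pass. Ambra1, a scaffold that links the kinase complex to Beclin 1, had signals of 169.5, 270.1, 305 and 234 in hypoxia muscle, against 428, 534, 378 and 420.0 in control muscle. Its groups did not overlap either, and it fell 1.77-fold (log2 change -0.83 ± 0.21, adjusted p = 0.00798), with 2 dimmer probe sets at 0.09 and -0.01 and a mean over probe sets of -0.25, none of which passed. Atg101, which stabilises Atg13 in the kinase complex, changed by -0.67 ± 0.23 (adjusted p = 0.0395) with overlapping groups, and this call was lost under 11 of 20 alternative settings (adjusted p = 0.0118 to 0.105). The other subunits of that complex did not pass: Atg13 changed by -0.41 ± 0.25 and Rb1cc1, also known as FIP200, by 0.26 ± 0.15. A dimmer probe set of Atg13 changed by 1.29 without passing, so the direction of Atg13 is uncertain.

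In the lipid kinase complex, 2 subunits passed upwards and none downwards, beside 14.8% and 18.8% of all genes tested. This split rests on the threshold, since Pik3r4 narrowly missed it as a fall and the call of Pik3c3 was lost under several settings. Uvrag, a subunit of the form that acts in vesicle maturation, had signals of 1926, 1787, 1245 and 1607 in hypoxia muscle, against 970.3, 891, 1139 and 1109 in control muscle. All hypoxia values lay above all control values, with means of 1642 ± 295 in hypoxia and 1027 ± 117 in control muscle (SD, n = 4 each), and the rise was 1.58-fold (log2 change 0.66 ± 0.17, adjusted p = 0.0085). Pik3c3, the catalytic subunit also known as VPS34, had signals of 793, 965, 854 and 855 in hypoxia muscle, against 566, 619, 591 and 745 in control muscle. Here too the groups did not overlap, and the rise was 1.37-fold (log2 change 0.45 ± 0.15, adjusted p = 0.0333), but the call was lost with the replicate number as a block and without any 1 of 6 of the 8 arrays (adjusted p = 0.011 to 0.092 over all settings). Pik3r4, the regulatory subunit VPS15, changed by -0.67 ± 0.24 and narrowly did not pass (adjusted p = 0.0504), although each hypoxia value was below each control value. Becn1, which encodes Beclin 1, changed by 0.38 ± 0.14 (adjusted p = 0.0576) with no overlap on its brightest probe set and by 0.04, 0.24 and 0.05 on 3 others, and Atg14, the subunit that sends the complex to forming autophagosomes, by 0.32 ± 0.17 (adjusted p = 0.161). Among the genes that extend the membrane, none of the 5 passed. Atg9a, a lipid scramblase carried on vesicles, changed by -0.53 ± 0.21, and Wipi2, which reads the lipid mark, by 0.43 ± 0.20. The lipid transfer proteins Atg2a and Atg2b changed by 0.23 and 0.12. A dimmer probe set of Atg2b changed by -0.59 without passing, so the direction of Atg2b is uncertain. Wipi1, another reader of the lipid mark, changed by 0.04 on the brightest of its 6 probe sets.

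Conjugation held the largest single rise. Gabarapl1, a GABARAP family member that is attached to the autophagosome membrane, had signals of 5887, 7224, 7242 and 7924 in hypoxia muscle, against 2189.5, 1806, 2425 and 2496 in control muscle. Hypoxia values were all above control values, with the lowest hypoxia value on array 1, and means were 7069 ± 853 in hypoxia and 2229 ± 311 in control muscle (SD, n = 4 each). The rise was 3.16-fold (log2 change 1.66 ± 0.15, adjusted p = 5.09e-06), and the other probe set, which is specific to the gene by its array name where the brightest may also bind related transcripts, changed by 1.79 and passed. Map1lc3b, which encodes LC3B, the most used marker of autophagosomes, had signals of 42420.5, 35422, 29807 and 28535 in hypoxia muscle, against 10874, 14017, 17241 and 14468 in control muscle. The groups did not overlap and the highest value was on hypoxia array 1. The rise was 2.41-fold on this probe set (log2 change 1.27 ± 0.17, adjusted p = 0.000116), whereas 2 further bright probe sets changed by 0.25 and 0.24 and did not pass, so the size of the rise is uncertain. The mean over the 3 probe sets changed by 0.58 and passed (adjusted p = 0.00799).

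Gabarapl2, also known as GATE-16, had signals of 7599, 9244, 6888 and 6739 in hypoxia muscle, against 3908, 4575, 3344 and 3391 in control muscle. Its groups did not overlap, the rise was 1.998-fold (log2 change 1.00 ± 0.15, adjusted p = 0.000306), and a dimmer probe set changed by 0.46 without passing. Gabarap itself, read by 1 probe set, had signals of 6416, 8967, 9076 and 7947 in hypoxia muscle, against 4462, 4883, 6161 and 6059 in control muscle. The lowest hypoxia value was close to the highest control value, the groups did not overlap, and the rise was 1.5-fold (log2 change 0.59 ± 0.16, adjusted p = 0.0131). Map1lc3a, the fifth family member on the list, changed by 0.37 ± 0.19 and did not pass (adjusted p = 0.168), with a second probe set at -0.33. Without hypoxia array 1, Map1lc3a changed by 0.54 and passed (adjusted p = 0.0177). Atg3, the enzyme that transfers LC3 and GABARAP proteins to the lipid, had signals of 4296, 3834, 3611 and 3611 in hypoxia muscle, against 2475, 2632, 2275 and 2599 in control muscle. The groups did not overlap and the rise was 1.53-fold (log2 change 0.62 ± 0.13, adjusted p = 0.00269).

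**Figure D2:**
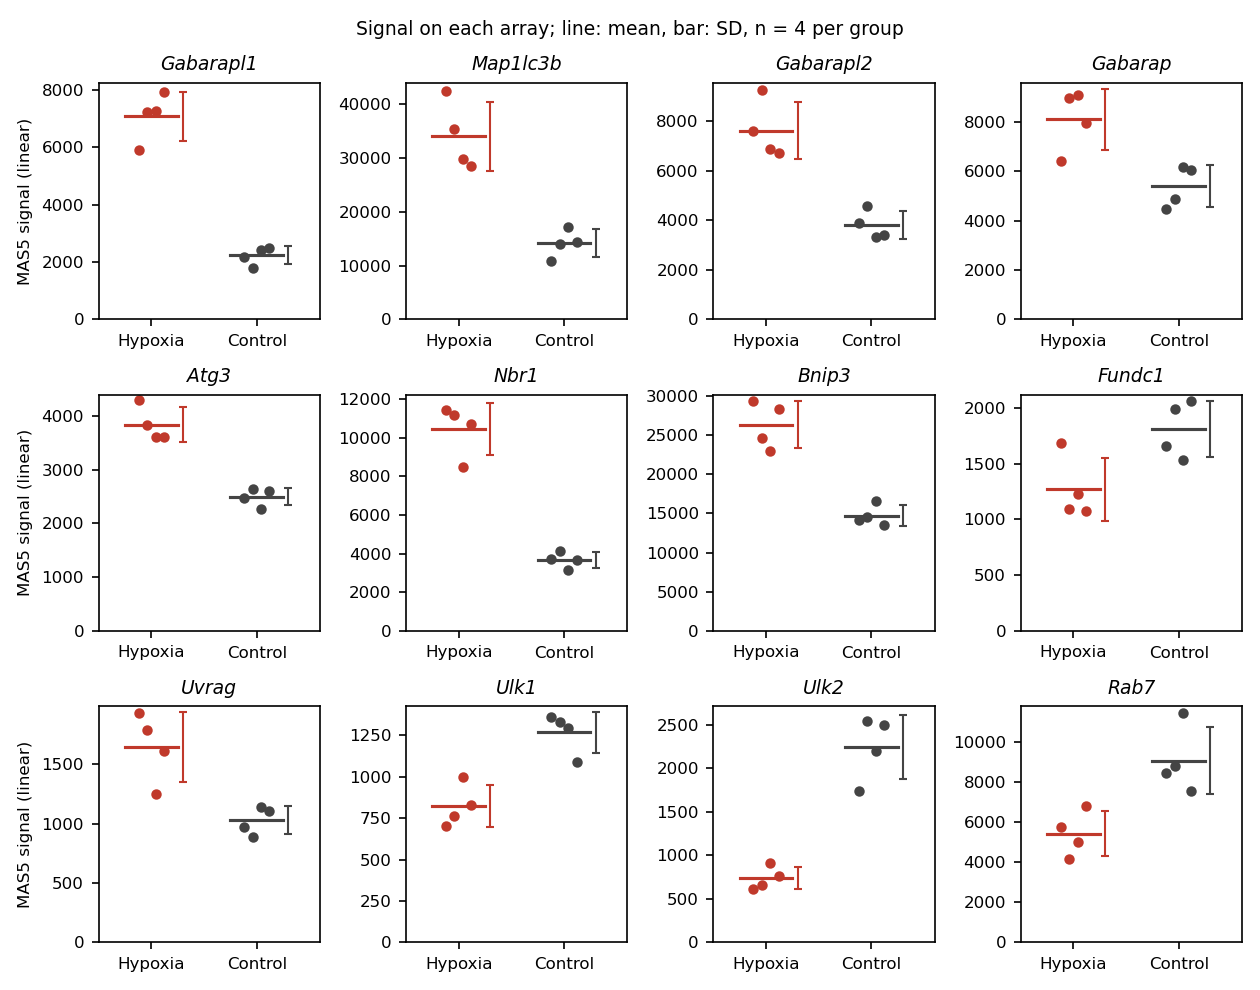
MAS5 signal (linear scale from 0) on each array for 12 autophagy and mitophagy genes, hypoxia left and control right in each panel, with a line for the mean and a bar for the SD of 4 arrays. Hypoxia and control values are apart in every panel but that of Fundc1, where hypoxia array 1 (1683) lies inside the control range.

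The remaining enzymes of conjugation did not pass. Atg7, the activating enzyme, changed by 0.05 ± 0.18, and Atg10, the transfer enzyme for Atg12, by -0.49 ± 0.24. Atg5, Atg12 and Atg16l1, whose products form the complex that places LC3 on the membrane, changed by -0.15, -0.28 and -0.10. The proteases Atg4a, Atg4b, Atg4c and Atg4d, which trim LC3 and GABARAP proteins and later release them, changed by 0.33, 0.02, -0.18 and -0.30. All hypoxia values of Atg4a were above all its control values, with an adjusted p of 0.073. For Atg7 and Atg4b, dimmer probe sets passed where the brightest did not, at 1.44 for Atg7 and at -0.83 for Atg4b, so their directions are uncertain.

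Among the receptors, Nbr1, which binds ubiquitin-tagged cargo, had signals of 11447, 11171, 8473 and 10744 in hypoxia muscle, against 3749, 4144, 3139 and 3697 in control muscle. Every hypoxia value was more than 2-fold above every control value, and the means were 10459 ± 1355 in hypoxia and 3682 ± 413 in control muscle (SD, n = 4 each). The rise was 2.83-fold (log2 change 1.499 ± 0.15, adjusted p = 8.71e-06), and a second probe set changed by 0.68 without passing when tested over all probe sets (adjusted p = 0.0509). Sqstm1, which encodes p62, the related receptor, was not among the genes that changed, with 16001 ± 2948 in hypoxia and 15524 ± 1033 in control muscle (SD, n = 4 each, log2 change 0.02 ± 0.15). Bnip3, a mitophagy receptor of the outer mitochondrial membrane and a known target of the hypoxia-inducible factor, had signals of 29368, 24668, 22995 and 28309.8 in hypoxia muscle, against 14160.5, 14582, 16614 and 13524 in control muscle. The groups were well apart and the rise was 1.78-fold (log2 change 0.84 ± 0.13, adjusted p = 0.000389). Fundc1, a mitophagy receptor regulated by phosphorylation in low oxygen, had signals of 1683, 1097, 1228 and 1078 in hypoxia muscle, against 1657, 1994, 1535 and 2061 in control muscle. Hypoxia array 1 lay inside the control range and the other 3 hypoxia arrays below it. The fall was 1.43-fold (log2 change -0.52 ± 0.17, adjusted p = 0.0365), other probe sets were at -0.48, which passed, and at -0.37, which did not, and the call was lost under 10 of 20 alternative settings (adjusted p = 0.00543 to 0.154). The 2 mitophagy receptors of this step that passed thus had opposite signs, with the call of Fundc1 the less stable of them.

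Pink1, the kinase that marks damaged mitochondria, had signals of 28776, 23698, 16939.5 and 20467 in hypoxia muscle, against 15634, 24184, 18984 and 22986 in control muscle. The groups overlapped almost fully, and the change of 0.13 ± 0.19 did not pass (adjusted p = 0.64). Calcoco1, a receptor of the endoplasmic reticulum and Golgi, had signals of 587, 931, 842 and 544 in hypoxia muscle, against 541, 576, 514 and 569 in control muscle. Hypoxia arrays 1 to 3 were above all control values and hypoxia array 4 lay inside the control range, and the change of 0.36 ± 0.19 did not pass (adjusted p = 0.169).

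Of the 4 genes of fusion and its control, 2 fell and none rose on the brightest probe sets, and with the mean of probe sets 0 fell. Stx17, the syntaxin that sits on closed autophagosomes, had signals of 619, 541, 564 and 889.9 in hypoxia muscle, against 866, 1265, 1268 and 1232 in control muscle. The groups overlapped through hypoxia array 4 and control array 1, and the fall was 1.77-fold (log2 change -0.82 ± 0.19, adjusted p = 0.00548). The 3 other probe sets of Stx17 changed by -0.20, 0.29 and -0.04 without passing, and their mean with the brightest changed by -0.19 and did not pass. Rab7, the small GTPase of late endosomes and lysosomes, had signals of 5746, 4149, 4998 and 6792 in hypoxia muscle, against 8454, 8818, 11427 and 7567 in control muscle. The groups did not overlap and the fall was 1.68-fold (log2 change -0.75 ± 0.18, adjusted p = 0.0057), but a second bright probe set changed by 0.18 without passing and the mean of both changed by -0.28 without passing, so the direction of Rab7 is uncertain. Tecpr1, a tether between autophagosome and lysosome, had signals of 857, 651, 609 and 594 in hypoxia muscle, against 753, 784, 971 and 827 in control muscle. The change of -0.30 ± 0.17 did not pass (adjusted p = 0.185). Tfeb, the transcription factor that activates lysosomal and autophagy genes, had signals of 668, 887, 824 and 722 in hypoxia muscle, against 1091, 1103, 1075 and 836 in control muscle. Only control array 4 lay in reach of the hypoxia values, and the change of -0.40 ± 0.16 did not pass (adjusted p = 0.0717) unless that array was left out (-0.49, adjusted p = 0.0434).

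**Figure D3:**
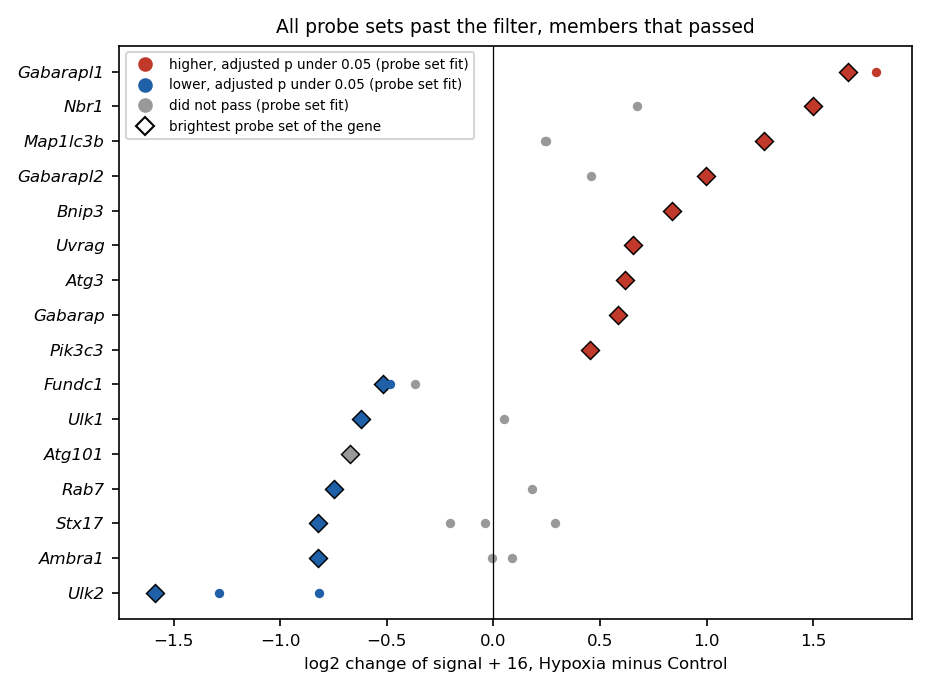
Log2 change of signal plus 16, hypoxia minus control, of every probe set past the filter for the 16 genes that passed, with a black-edged diamond for the brightest probe set and colours from a fit over 27023 probe sets. For Gabarapl1 and Ulk2 the other probe sets also passed in the same direction, for Map1lc3b they lie at 0.25 and 0.24, and for Ulk1, Ambra1, Stx17 and Rab7 at least 1 lies on the other side of 0; Atg101 passed in the fit over genes but not in this one.

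How far probe sets bore out a call was counted over the 16 genes that passed. Another probe set past the filter was present for 10 of them. In 3 of these 10 (Ulk2, Gabarapl1 and Fundc1) at least 1 other probe set passed in the same direction, and in 4 (Ulk1, Ambra1, Stx17 and Rab7) at least 1 had the opposite sign without passing. The 6 genes with no second probe set past the filter were Bnip3, Uvrag, Atg3, Gabarap, Pik3c3 and Atg101. Of the 16 calls, 9 held under all 20 alternative settings, among them all 5 rises of conjugation, both rises of receptors, Uvrag and Ulk2.

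Promoters of the genes were searched for short motifs, to set the letters beside the changes. RefSeq promoter windows of the build GRCm38.p6, from 250 bases before to 50 after the start of transcription, were at hand for 36 of the 42 genes, in 42 windows, and those of Rb1cc1, Becn1, Pik3c3, Atg12, Atg16l1 and Map1lc3a were not used here. The searched motifs, on both strands, were CACGTG (the E-box), TCACGTG (the core of the element that TFEB binds, which contains the E-box), ACGTG or GCGTG (cores of the hypoxia response element, of which ACGTG lies within the E-box) and GTAAACA (a FoxO site). The E-box was in 5 of the 42 windows (11.9%), against 9.41% of the 13676 windows of genes tested on the array, and TCACGTG in 3 (7.14%, against 5.48%). ACGTG or GCGTG was in 35 windows (83.3%, against 58.7%), with a median GC content of 59.6% in windows of these genes and 60% in those of all genes tested. It was in 7 of 9 windows of genes that rose, 6 of 8 of genes that fell and 21 of 24 of genes that did not pass. GTAAACA was in none of the 42 windows, against 2.83% of windows of genes tested. A match is a description of the letters and not a site.

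The windows shown are those of the known hypoxia-inducible factor target Bnip3 (chr7:138909457-138909756, minus strand), of Atg3, the gene with TCACGTG among those that rose (chr16:45158579-45158878, plus strand), of Gabarapl1, which rose most and held none of the motifs (chr6:129532942-129533241, plus strand), of Map1lc3b (chr8:121590188-121590487, plus strand) and of Ulk2, which fell most (chr11:61855043-61855342, minus strand). Each is written 5′ to 3′ on the strand of the gene, with all matches to the motifs in capitals.
Bnip3: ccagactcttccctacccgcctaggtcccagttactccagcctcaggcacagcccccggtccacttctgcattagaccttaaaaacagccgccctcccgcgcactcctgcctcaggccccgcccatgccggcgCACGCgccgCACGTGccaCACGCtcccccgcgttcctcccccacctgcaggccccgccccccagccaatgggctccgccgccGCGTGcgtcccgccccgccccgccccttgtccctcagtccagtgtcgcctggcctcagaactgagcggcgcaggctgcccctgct
Atg3: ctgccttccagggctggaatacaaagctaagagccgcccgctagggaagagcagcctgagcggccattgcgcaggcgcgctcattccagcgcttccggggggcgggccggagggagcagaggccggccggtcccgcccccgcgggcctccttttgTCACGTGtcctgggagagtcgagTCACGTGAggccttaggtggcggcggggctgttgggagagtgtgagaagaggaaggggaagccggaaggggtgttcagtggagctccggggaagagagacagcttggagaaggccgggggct
Gabarapl1: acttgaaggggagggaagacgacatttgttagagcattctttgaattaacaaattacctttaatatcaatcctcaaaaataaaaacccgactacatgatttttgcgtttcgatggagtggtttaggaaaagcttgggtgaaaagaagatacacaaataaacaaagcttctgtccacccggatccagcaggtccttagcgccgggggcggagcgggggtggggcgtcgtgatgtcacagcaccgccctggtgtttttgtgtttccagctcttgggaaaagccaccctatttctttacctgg
Map1lc3b: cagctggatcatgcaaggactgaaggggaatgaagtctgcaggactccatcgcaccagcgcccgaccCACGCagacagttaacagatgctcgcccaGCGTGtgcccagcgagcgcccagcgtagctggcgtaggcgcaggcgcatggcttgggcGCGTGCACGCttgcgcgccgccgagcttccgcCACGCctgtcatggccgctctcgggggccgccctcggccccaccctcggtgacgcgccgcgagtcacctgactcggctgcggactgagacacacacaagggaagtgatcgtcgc
Ulk2: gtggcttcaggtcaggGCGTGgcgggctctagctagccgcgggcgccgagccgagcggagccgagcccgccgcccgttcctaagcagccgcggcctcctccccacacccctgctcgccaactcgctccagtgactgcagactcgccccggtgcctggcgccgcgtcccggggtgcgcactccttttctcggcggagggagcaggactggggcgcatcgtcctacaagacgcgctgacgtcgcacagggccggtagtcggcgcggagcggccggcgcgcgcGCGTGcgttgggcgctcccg
In Bnip3 the E-box began 108 bases before the start of transcription, and in Atg3 the 2 copies began 94 and 71 bases before it. Map1lc3b held 5 matches to GCGTG, counting both strands, and Ulk2 held 2, of which 1 began 31 bases after the start.

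Further genes of the pathway were taken from a second list of 43, which holds additional receptors, core factors, tethers and transcription factors. Of 39 tested, 15 rose and 5 fell (38.5% and 12.8%, beside 14.8% and 18.8% of all genes tested), and the median change was 0.28. The list was chosen with earlier results of these data known, so its shares are descriptions and not a test of the pathway. With the mean of probe sets 10 of the 39 were higher and 7 lower. Nipsnap1 and Atg16l2 were below the filter, and Bnip3l had no probe set of its own. Of 15 tested receptor and mitophagy genes, 8 rose and 2 fell (53.3% and 13.3%). Retreg1, a receptor for autophagy of the endoplasmic reticulum also known as FAM134B, had signals of 47254, 38124, 35735 and 39599 in hypoxia muscle, against 18179, 17359.6, 19412 and 16752 in control muscle. The groups were far apart, the rise was 2.23-fold (log2 change 1.16 ± 0.13, adjusted p = 2.72e-05), and its second probe set changed by 2.22 and passed. Tex264, another receptor of the endoplasmic reticulum, averaged 1472 ± 402 in hypoxia and 541 ± 45.8 in control muscle (SD, n = 4 each) and rose 2.6-fold (log2 change 1.38 ± 0.19, adjusted p = 0.000152). Tax1bp1, a ubiquitin receptor that works with Nbr1 and p62, averaged 6681 ± 912 in hypoxia and 3024 ± 257 in control muscle and rose 2.19-fold (log2 change 1.13 ± 0.14, adjusted p = 6.29e-05), with 3 other probe sets at 0.52, 0.81 and -0.29. Ccpg1, Usp30, Phb2, Tollip and Bcl2l13 rose as well, at 0.49 to 0.89, although second probe sets of Ccpg1 and Bcl2l13 were at -1.07 and -1.39 and make these 2 uncertain. Fkbp8, a mitophagy receptor read by 1 probe set, averaged 141 ± 94.3 in hypoxia and 759.5 ± 137 in control muscle and fell 5.5-fold (log2 change -2.46 ± 0.33, adjusted p = 9.54e-05). Its hypoxia signals were 68.8, 89.9, 277.5 and 126.7. Values of 68.8 and 89.9 lie under the filter signal of about 90.2, so the size of this fall is uncertain. Rtn3, a receptor for tubules of the endoplasmic reticulum, fell by 0.97 on the log2 scale.

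Of 9 tested core and membrane genes, 3 rose and 2 fell on their brightest probe sets (33.3% and 22.2%, beside 14.8% and 18.8% of all genes tested). Trp53inp1, a p53-induced protein that binds LC3, had signals of 10582, 7768, 5477 and 7484 in hypoxia muscle, against 1089.7, 1126, 1166 and 759 in control muscle. Groups were far apart and the rise was 7.36-fold (log2 change 2.88 ± 0.20, adjusted p = 6.75e-07), with a second probe set at 1.32 that passed. Its relative Trp53inp2, which also binds LC3 and GABARAP proteins, had signals of 2755, 2992, 4049 and 3394 in hypoxia muscle, against 8639, 7898, 8235 and 5813 in control muscle. It moved the other way, 2.31-fold lower (log2 change -1.21 ± 0.17, adjusted p = 0.000142), with a second probe set at -1.28 that passed. Tmem41b, a lipid scramblase of autophagosome formation, changed by 1.82 ± 0.19 on its brightest probe set and passed, but 4 of its 5 other probe sets had the opposite sign, so its direction is uncertain. Zfyve1, a marker of the membrane site where autophagosomes form, rose 1.49-fold (log2 change 0.58 ± 0.16, adjusted p = 0.0152). Rubcn, which inhibits autophagosome maturation, changed by -0.74 and passed narrowly (adjusted p = 0.0475) with overlapping groups. In the fit over all probe sets Rubcn did not pass (adjusted p = 0.059).

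Of 11 tested fusion genes, 2 rose and 1 fell (18.2% and 9.09%, beside 14.8% and 18.8% of all genes tested). Vps39, a subunit of the HOPS tethering complex, averaged 292 ± 35.3 in hypoxia and 568 ± 62.8 in control muscle and fell 1.9-fold (log2 change -0.92 ± 0.17, adjusted p = 0.000971), with a second probe set at -0.998 that did not pass. Epg5, a tether that binds Rab7, rose 1.43-fold (log2 change 0.52 ± 0.15, adjusted p = 0.0179), and Vps33a, another HOPS subunit, rose 1.69-fold (log2 change 0.76 ± 0.22, adjusted p = 0.0191) with overlapping groups. Vps11, a core subunit of HOPS, changed by -0.42 ± 0.17 and did not pass. Dimmer probe sets of Vps11 past the filter changed by -0.25 and 1.01 without passing, so its direction is uncertain. Of 4 transcription factors, Foxo1 and Foxo3, which activate autophagy and atrophy genes in muscle, rose 1.84-fold (log2 change 0.88 ± 0.17, adjusted p = 0.00147) and 1.77-fold (log2 change 0.82 ± 0.17, adjusted p = 0.00234), and other probe sets of both passed in the same direction. Their signals averaged 2378 ± 357 in hypoxia and 1291 ± 228 in control muscle for Foxo1, and 1881 ± 434 in hypoxia and 1039 ± 88.2 in control muscle for Foxo3. Mitf and Tfe3, relatives of Tfeb, changed by 0.28 ± 0.17 and -0.20 ± 0.20 and did not pass, although a second probe set of Mitf was at -1.22 and passed.

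**Figure D4:**
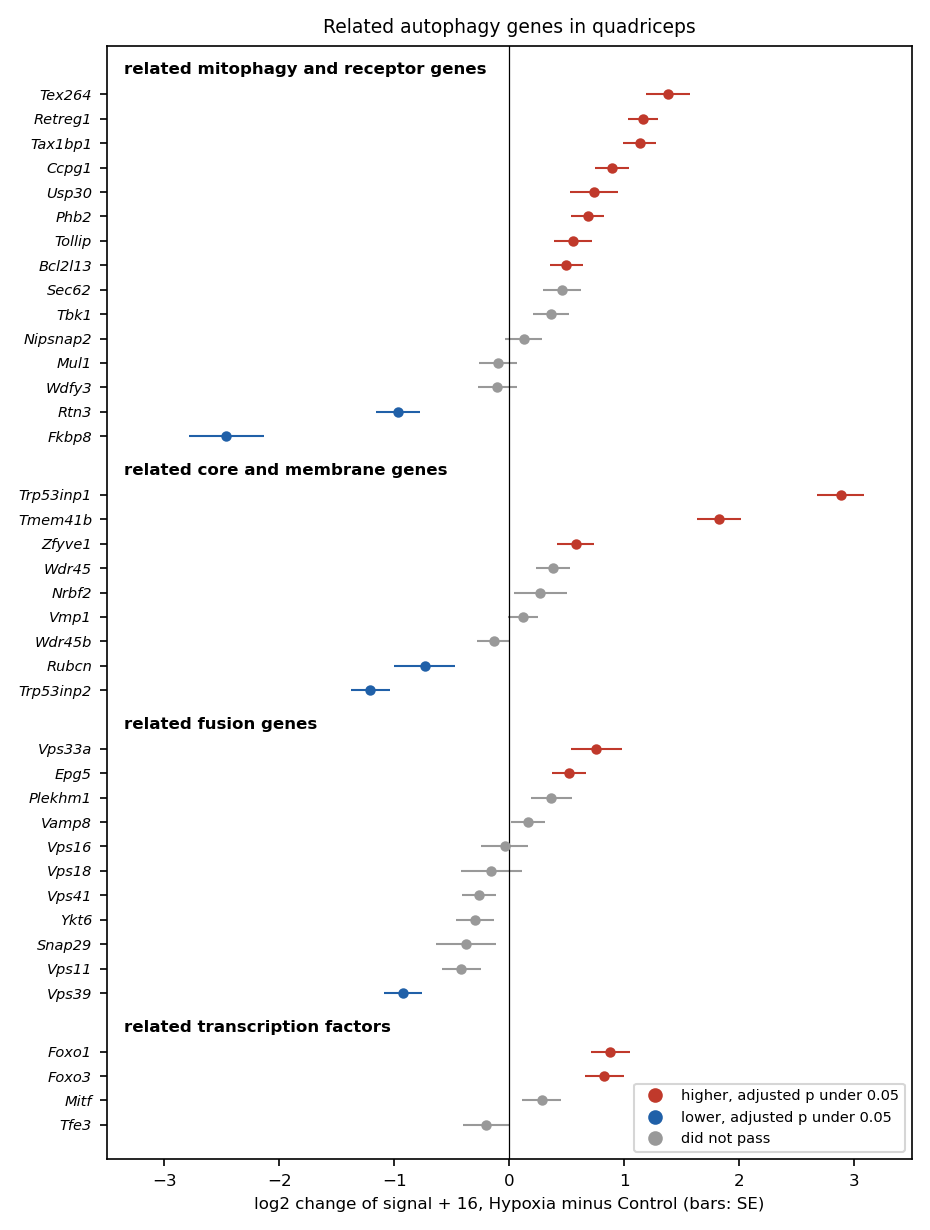
Log2 change of signal plus 16, hypoxia minus control, of the 39 tested genes of the second list, grouped by role, with bars for the SE of the limma fit. Red points (15) rose, blue points (5) fell and grey points (19) did not pass; Trp53inp1 (2.88) and Fkbp8 (-2.46) lie at the ends.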

How the data were processed

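Total RNA from quadriceps muscle was hybridised to 8 Affymetrix mouse arrays, 4 per group. The authors deposited 1 intensity per probe set and array, made with MAS5 per the submitters' processing notes, on a linear scale as the values show. The software version, detection calls and any filters were not given in the sources used here. The 2% trimmed mean was the same on each array, namely 500, so the authors' scaling was kept. Dim probe sets are noisy in MAS5, bright ones can saturate, and probes far from the 3' end lose signal in broken RNA.

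Of 45101 probe sets, 64 controls and then the 40% with the lowest mean were left out (signal about 90.2). Symbols came from the platform annotation, updated through gene identifiers for 99.4% of 34958 probe sets with 1 symbol, while 932 had several and 9211 were unlisted. Each of 13258 genes was represented by its brightest probe set. Hypoxia and control were compared with limma 3.58.1 in R 4.3.3 on log2(signal + 16), which understates changes of dim genes (eBayes with trend, two-sided, Benjamini-Hochberg over all 13258 genes, threshold 0.05). Other probe sets were tested in a fit over 27023 probe sets, and the fit was tested on simulated data. The members, lists and motifs were chosen with earlier results of these data known, and genes with values on every array are up to 5 per step, or named genes up to 4 per further list, with the smallest p. Genes outside this rule were named after their values were seen. Some listed genes are not reported here. The number of arrays limits the precision.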

Additional observations from a re-analysis of the deposited data

Results flagged for a closer look

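In 82 groups of 4 values (41 genes, hypoxia and control), an array was marked where its gap to the nearest value was a larger share of the group's range than Dixon's critical value for 4 samples. Gap and range were taken on log2(signal + 16), while the values given here are linear signals. Chance marks about 1 in 20 groups, or 4.1 here, and 4 were marked. For Sqstm1 the lowest hypoxia signal was 11650.5, on hypoxia array 1, with the others at 16831 to 18125. For Atg5 control array 3 had 374.4 and the others 638.5 to 689.9. For Stx17 control array 1 had 865.9 and the others 1232 to 1268. For Tfeb control array 4 had 835.9 and the others 1075.0 to 1103. Without that array Tfeb passed, as given above, and the calls of Stx17, Sqstm1 and Atg5 did not change without their marked arrays.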

How the results depend on the processing

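Over 20 alternative settings, 9 of the 16 calls held throughout and none changed direction. The other 7 were lost somewhere: Ulk1, Ambra1, Stx17 and Rab7 only when probe sets were averaged per gene, and Atg101, Pik3c3 and Fundc1 in several. Of the 25 genes that did not pass, 16 passed in no setting and 9 in at least 1. With the mean of probe sets 2 members were lower, in place of 7. Leaving out single arrays gave 8 to 10 members higher and 5 to 8 lower, and 12 to 15 genes of the second list higher and 4 to 5 lower. With the replicate number as a block 8 members were higher and 6 lower. The labels do not say whether these numbers pair the samples. Deviations of same-numbered arrays from their group means had correlations of -0.07 to 0.00, which cannot settle it. Signs changed in 8 genes that did not pass. With the mean of probe sets Atg13 stood at 0.44, Atg2b at -0.23 and Atg4b at -0.41. Without _x_at and _s_at probe sets Map1lc3a stood at -0.33. Atg16l1 stood at 0.00 after quantile normalization and at 0.03 after median centring. Leaving out single arrays moved Wipi1 between -0.04 and 0.12, Atg4b between -0.05 and 0.09, Atg7 between -0.04 and 0.13, Atg16l1 between -0.21 and 0.00 and Sqstm1 between -0.04 and 0.17. The causes were not tested.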

Other observations

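Dimmer probe sets of 3 genes passed in the fit over all probe sets while the brightest did not. For Atg7 the dimmer one changed by 1.44 (206.3 in hypoxia and 54.3 in control on average, adjusted p = 0.0456), for Wipi1 by 0.72 (454.9 and 263.2, adjusted p = 0.0483) and for Atg4b by -0.83 (351.7 and 633.2, adjusted p = 0.00382).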
